A study of Mus musculus with 4 samples.

Results

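Penk, Tox, Fam110b, Sdcbp, Ubxn2b, Rab2a, Asph, Bpnt2 and Chchd7 are 9 genes that flank Nsmaf on mouse chromosome 4. Nsmaf encodes FAN, which couples the TNF receptor to sphingomyelin breakdown, and it is the gene disrupted in the knockout cells of this study. The 9 were chosen by symbol, with their values on these arrays known, out of 18193 genes that the arrays measure with probe sets naming a single gene. A probe set is the group of short probes that reports one transcript region, and the 9 genes have 32 of them out of 45101 on the array. Because the values of all 4 arrays were known when the genes were chosen, every difference below is a description and carries no test.

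RNA came from mouse embryonic fibroblasts, primary cells grown out of C57BL/6 embryos. Wild-type (FAN +/+) and FAN -/- cells were both kept without serum for 24 h, either with nothing added or with TNF at 50 ng/ml for the last 16 h, after 8 h without it. Total RNA of each of the 4 conditions was hybridised to 1 Affymetrix mouse array, so no condition has a replicate, and precision is limited by having 4 arrays in all. The labels do not say how many embryos were pooled, or whether the arrays of a genotype share a cell preparation. How the FAN allele was made is not stated there either. The titles give the groups used here, and the genotype entry of 2 of the 4 arrays disagrees with its title.

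The genes share a stretch of chromosome and not a pathway. Penk encodes proenkephalin, which is cut into the enkephalins, small opioid peptides. It is best known in brain and adrenal medulla and is also transcribed in embryonic connective tissue. Tox encodes a nuclear HMG-box protein with a central part in T cell development. The others have housekeeping or less well known roles. Syntenin (Sdcbp) is a scaffold that binds syndecans, Rab2a is a small GTPase of traffic between the endoplasmic reticulum and the Golgi, and Bpnt2 is a Golgi phosphatase that clears a by-product of sulfation. Ubxn2b is a cofactor of the ATPase p97, Asph is a hydroxylase of the endoplasmic reticulum whose gene also encodes the calcium-store proteins junctin and junctate, Chchd7 is a small mitochondrial protein, and Fam110b is a centrosome-associated protein.

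The arrays were close in level as deposited. Between 49.2% and 50.5% of probe sets lay above a floor of 77.0 signal units (log2 6.27), the 50th percentile of all values. Values below this floor were raised to it before differences were taken, so that a difference against a value at the floor is a lower bound. All 9 genes lay above the floor on at least 1 array, and 8 of them, all but Tox, on all 4. A gene counts as apart at a log2 difference of at least 1, which is 2-fold. The wild-type arrays read log2 8.95 (untreated) and 8.55 (TNF) for Nsmaf itself, and the knockout arrays 7.91 and 7.48. The knockout signal was thus 2.07-fold lower in untreated cells and 2.10-fold lower under TNF. That direction goes with the titles. Whether its single probe set lies in the disrupted part is not known here, so its remaining signal checks nothing further.

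All 10 fibroblast markers lay above the floor on all 4 arrays. Of these, 2 were at least 2-fold lower in knockout cells in both treatments. Over all 12224 genes above the floor, 1.46% were at least 2-fold lower in both treatments and 0.859% at least 2-fold higher. Lum read 12.75 and 13.42 in wild-type cells without and with TNF but 8.78 and 7.45 in knockout cells. Pdgfra read 10.89 and 11.43 against 9.46 and 9.62. The summed signal of the list was 115227 to 117936 on the wild-type arrays and 91139 to 102235 on the knockout arrays. Of 8 leukocyte markers 3 lay above the floor, with summed signals of 643 to 895 in wild-type and 885 to 1405 in knockout cells, while the defining marker Ptprc lay below it on all 4. Csf1r and Lyz2 were 2.46-fold and 3.28-fold higher in untreated knockout cells, and with TNF they differed by 1.02-fold and 1.12-fold. Of 8 neuronal markers 5 lay above the floor, with summed signals of 2300 to 2665 in wild-type and 3821 to 5676 in knockout cells. Among these, Stmn2 was at least 2-fold higher in knockout cells in both treatments and Tubb3 with TNF, where it was 3.15-fold higher. Map2 was at least 2-fold lower in untreated cells alone. The T cell list lay at 412 to 463 and 486 to 493, the epithelial list at 879 to 949 and 962 to 964, and the endothelial list at 378 to 428 and 393 to 416. The part of these shifts in the results below was not tested.

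Between genotypes, Penk and Tox stood at least 2-fold lower in knockout cells in both treatments, Fam110b lay next to that limit, and the other 6 genes lay within 1.5-fold. Thus 2 of the 9 genes were at least 2-fold lower without TNF and the same 2 with TNF, and none was 2-fold higher. Over all 12224 genes above the floor, 2.89% were 2-fold lower and 1.45% 2-fold higher in untreated knockout cells. With TNF these shares were 2.64% and 1.55%. The genes were chosen with these values known, so nothing is read from the count. In RNA from whole cultures, fewer cells that transcribe a gene and less RNA of it per cell cannot be told apart.

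The Penk probe set (1427038_at) read log2 13.85 (untreated) and 13.30 (TNF) on the wild-type arrays, and 6.81 and 7.15 on the knockout arrays. In signal units these are 14777 and 10096 against 113 and 142. Both wild-type arrays were very high and both knockout arrays lay just above the floor. The untreated knockout value was 131-fold lower than the wild-type value (log2 difference -7.04), and the TNF-treated one 71.1-fold lower (-6.15). Among genes measured above the floor on both sides, this was the lowest difference of 11167 without TNF and the lowest of 11374 with it, and no bound against the floor reached it. Measured limits touch the size of these folds. The untreated wild-type value lay close to the highest value of that array, log2 14.34, and Penk has 1 probe set, so no second one could be set beside it.

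**Figure D1:**
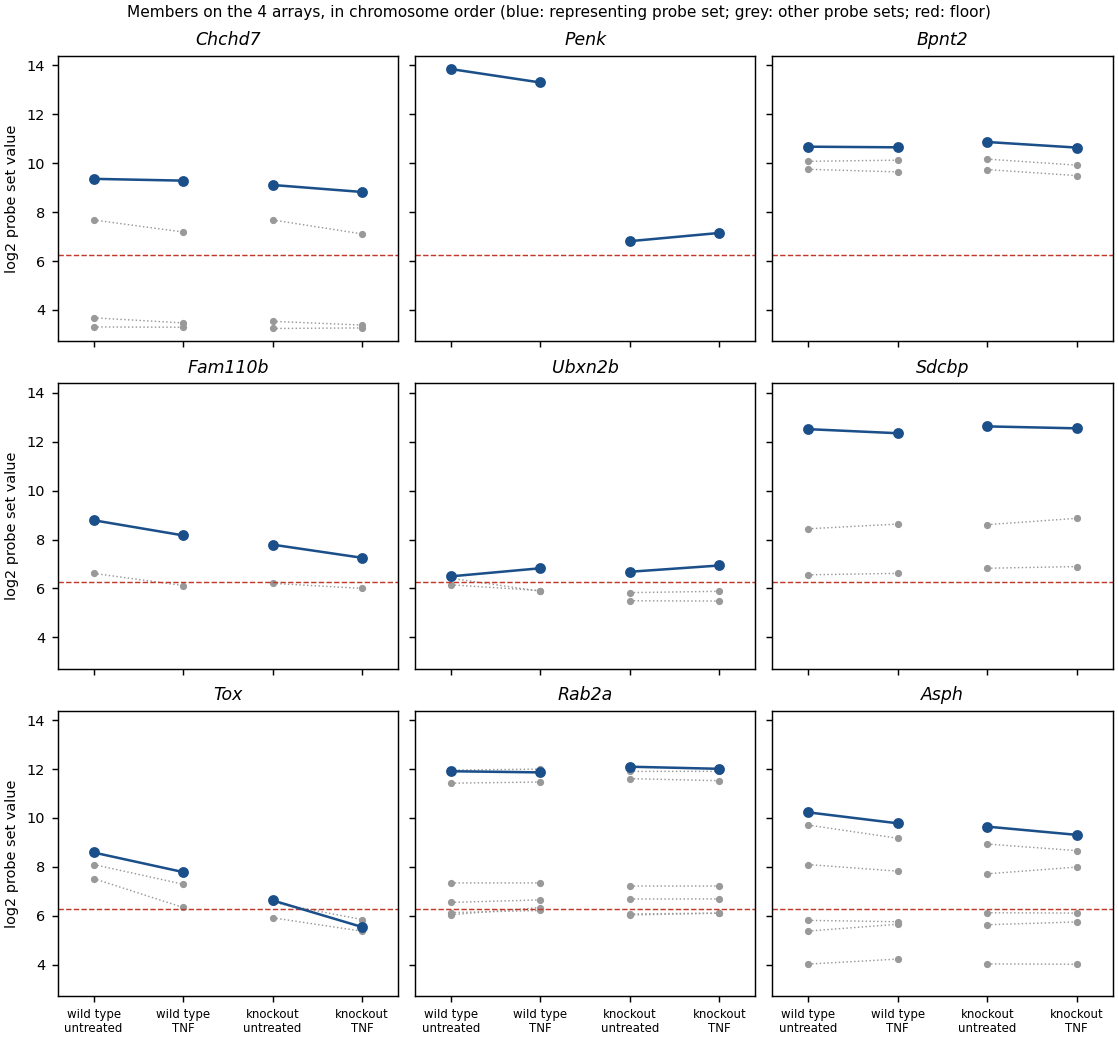
Log2 values (vertical axis) of every probe set of the 9 genes on the 4 arrays (horizontal axis), 1 array per condition, in chromosome order. Blue lines join the untreated and TNF-treated arrays of a genotype for the probe set that represents the gene, grey lines the other probe sets, and the dashed red line marks the floor of 6.27. Penk drops from above 13 on both wild-type arrays to 6.81 and 7.15 on the knockout arrays, Tox steps down across the arrays to below the floor, and Sdcbp, Rab2a and Bpnt2 run nearly level.

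Tox was lower in knockout cells on each of its 3 probe sets. The representing probe set, the one of highest mean (1425483_at), gave log2 values of 8.59 and 7.79 in untreated and TNF-treated wild-type cells and 6.63 and 5.54 in knockout cells. The groups did not overlap, and the TNF-treated knockout value was below the floor. The knockout signal was 3.89-fold lower without TNF (log2 difference -1.96), the 60th lowest of the 11167 genes measured on both sides. With TNF it was at least 2.87-fold lower, and the deposited values themselves differed by -2.25. A second probe set (1425484_at) went from 8.10 and 7.29 to 6.55 and 5.85, and the last (1442039_at) from 7.52 and 6.34 to 5.92 and 5.37. Without TNF these differed by -1.55 and by at least 1.26 downward. With TNF the second differed by at least 1.02 downward, while on the last even the wild-type value lay near the floor and only a bound of 0.07 remained. The calls for Tox therefore depend on low values. As the mean of all probe sets the difference with TNF was -0.87. Under a floor at the 70th percentile it was 0 with TNF and -0.74 without, both short of 2-fold.

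Fam110b was lower in knockout cells by an amount next to the 2-fold limit. Its representing probe set (1437150_at) read 8.79 and 8.17 in untreated and TNF-treated wild-type cells and 7.79 and 7.25 in knockout cells. Both knockout arrays lay below both wild-type arrays. The log2 difference was -0.998 without TNF, just outside the limit, and -0.92 with TNF. Centring each array on its median took the untreated difference past the limit, to -1.08. Other settings made it smaller. As the mean of all probe sets it was -0.70 without TNF and -0.52 with TNF. Under a floor at the 70th percentile it was -0.94 without TNF and -0.32 with TNF. A second, dim probe set (1440359_at) was above the floor on the untreated wild-type array alone, at 6.62, with deposited values of 6.12, 6.21 and 6.00 on the others.

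Asph and Chchd7 were lower in knockout cells by smaller amounts. The representing Asph probe set (1420959_at) gave 10.23 and 9.78 in wild-type and 9.64 and 9.31 in knockout cells, log2 differences of -0.58 and -0.47, and no overlap between the genotypes. A second one (1450058_at) ran alongside, with 9.71 and 9.17 against 8.93 and 8.66. Another (1426015_s_at) overlapped, from 8.09 and 7.82 to 7.72 and 7.99, and the other 3 lay below the floor on all arrays. The probe sets of this gene thus differed among themselves, and with all 6 averaged the differences shrank to -0.19 and -0.10. Which Asph product each one reports is not given in the files. Chchd7 read 9.36 and 9.29 in wild-type and 9.11 and 8.82 in knockout cells, differences of -0.25 and -0.46, while its second probe set (1444318_at) showed no such step, with 7.68 and 7.19 against 7.68 and 7.11.

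Sdcbp, the gene next to Nsmaf on one side, was nearly level. Its 3 probe sets were each slightly higher in knockout cells, by 0.11 to 0.27 log2 without TNF and by 0.20 to 0.28 with it. The brightest one read 12.51 and 12.35 in wild-type and 12.62 and 12.55 in knockout cells. Rab2a gave 11.91 and 11.86 in wild-type and 12.09 and 12.01 in knockout cells on its representing probe set, and an equally bright one (1418621_at) went slightly the other way, with 11.96 and 12.00 against 11.90 and 11.91. For Bpnt2 the values were 10.68 and 10.65 against 10.87 and 10.64, and the genotypes overlapped. Ubxn2b was close to the floor, with 6.49 and 6.82 in wild-type and 6.68 and 6.94 in knockout cells. Its other 2 probe sets were at or below the floor on nearly all arrays, and both went the other way in their deposited values. One of them (1449122_at) went from 6.42 and 5.89 to 5.49 and 5.48, and the other (1439932_at) from 6.15 and 5.91 to 5.83 and 5.88. For Rab2a and Ubxn2b no direction was therefore common to all probe sets. The 3 probe sets of Bpnt2 differed by -0.01 to 0.19 without TNF and by -0.20 to -0.01 with it.

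**Figure D2:**
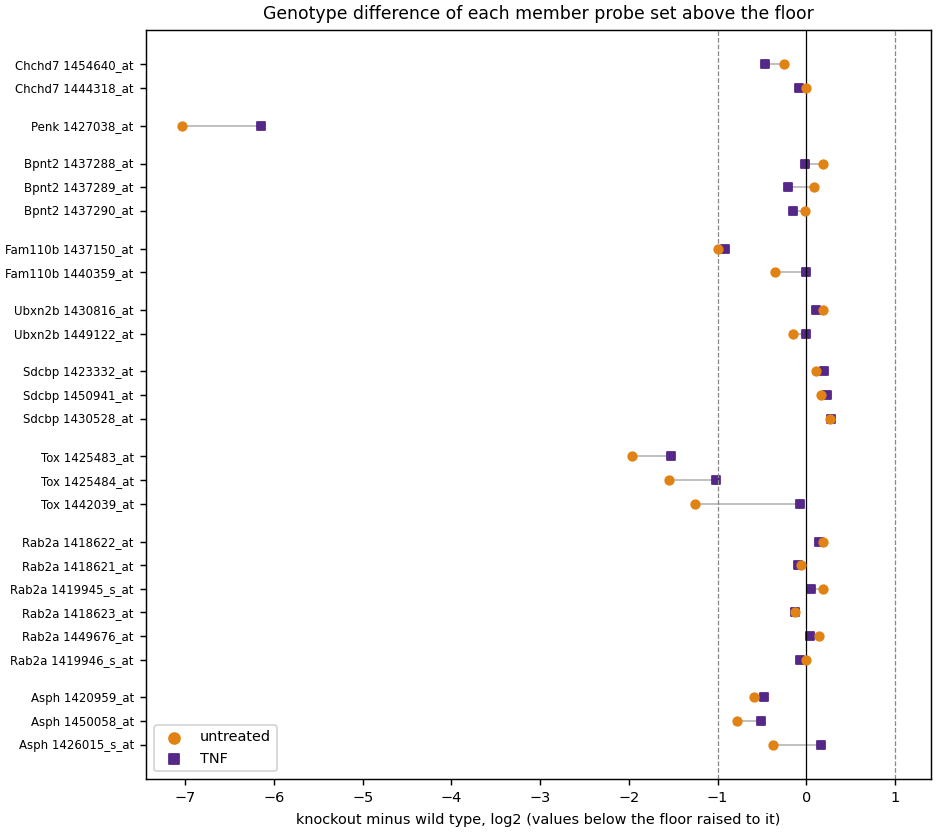
Knockout minus wild-type log2 difference (horizontal axis) of each of the 25 probe sets of the 9 genes that lay above the floor on at least 1 array (vertical axis, in chromosome order), untreated as orange circles and TNF-treated as purple squares, with dashed lines at 2-fold. Only the probe set of Penk and those of Tox lie beyond the dashed lines, 4 without TNF and 3 with TNF, while Fam110b 1437150_at touches the line.

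On the representing probe sets, both knockout arrays lay below both wild-type arrays for 5 of the 9 genes, Penk, Tox, Fam110b, Asph and Chchd7, and above them for 2, Sdcbp and Rab2a. Not all other probe sets shared this order. Of those above the floor on all 4 arrays, Rab2a 1418621_at and 1418623_at had both knockout arrays below. Asph 1426015_s_at, Chchd7 1444318_at and Sdcbp 1450941_at overlapped. Fam110b 1440359_at and Rab2a 1419946_s_at, each above the floor on 1 array alone, overlapped too. The genes were chosen with these values known, so the counts and medians here are descriptions. Of all genes above the floor, 24% had both knockout arrays below and 24% above. The median log2 difference of the 9 genes was -0.25 without TNF and -0.46 with TNF, against -0.03 and 0.01 over all 12224 genes. Leaving signs aside, the median size was 0.25 and 0.46, against 0.19 and 0.15.

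Along the chromosome, the genes with large genotype differences did not form one run around Nsmaf. The order is that of the RefSeq gene table of assembly GRCm38.p6, used for order only because the files name no build. Of 1093 measured genes ordered on chromosome 4, 16 lie before Nsmaf, and these and the 25 after it were examined. Above the floor were 25 of the 41. Penk lies 7 measured genes before Nsmaf, Fam110b 4 before and Tox next to it on the other side. Between Penk and Nsmaf also lie Bpnt2, Ubxn2b and Sdcbp, whose differences were at most 0.20 log2 in size on the representing probe sets. The noncoding gene 4930423M02Rik, 5 before Nsmaf, was higher in knockout cells by at least 0.278 log2 without TNF and 0.295 with it. Cyp7a1, the rate-limiting enzyme of bile acid synthesis, lies 2 genes before Nsmaf and was below the floor on all arrays. On the far side of Tox, the noncoding gene 8430436N08Rik, 2 genes after Nsmaf, differed by -0.24 log2 without TNF and -0.44 with it. The representing probe set of Rab2a, 4 genes after Nsmaf, was within 0.19 log2, and Asph, 8 genes after, differed by -0.58 log2 in untreated knockout cells.

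At the end of the examined stretch 3 further genes were lower in knockout cells. Pdp1, a phosphatase that activates pyruvate dehydrogenase, lies 25 genes after Nsmaf and gave 10.02 and 9.11 in wild-type and 8.84 and 7.97 in knockout cells. Its knockout signal was lower by 2.27-fold in untreated cells and by 2.21-fold under TNF. Cdh17, a cadherin, read 8.07 and 7.18 against 6.46 and 5.66, which is 3.06-fold lower without TNF and at least 1.88-fold under it. Gem, a small GTPase, read 7.37 and 8.24 against 6.25 and 7.68, at least 2.14-fold lower in untreated cells and 1.48-fold under TNF. Trp53inp1, a stress-induced gene 16 places after Nsmaf, went the other way by 1.70-fold and 1.74-fold. At least 2-fold apart the same way in both treatments were 3 of the 25 genes of this stretch, namely Penk, Tox and Pdp1. The share was 2.32% over all genes, and 11 of 719 genes (1.53%) on the rest of chromosome 4. Since 2 of the 3 belong to the chosen genes, this count is no independent result. Of the 16 genes of the stretch that were not chosen, 1, Pdp1, was apart in both treatments. Cdh17 joined it under a floor at the 30th percentile and with no floor, but not under a floor at the 70th percentile. Without TNF 3 of the 16, Gem, Cdh17 and Pdp1, were at least 2-fold lower in knockout cells, against 2.89% of all genes. With TNF 1 was, against 2.64%. Both knockout arrays lay below both wild-type arrays for 8 of the 16 and above them for 4. On the rest of chromosome 4 these shares were 25% and 21.8%, and over all genes 24% each. What lies behind this order was not tested.

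**Figure D3:**
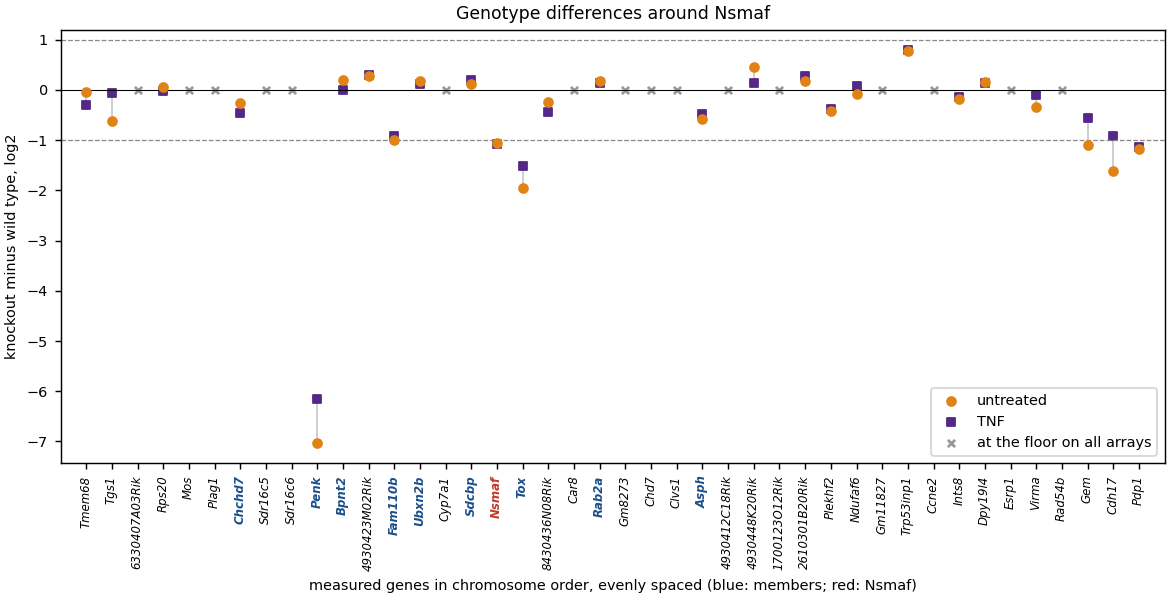
Knockout minus wild-type log2 difference (vertical axis) of the 41 measured genes around Nsmaf and of Nsmaf, evenly spaced in chromosome order (horizontal axis), untreated as orange circles and TNF-treated as purple squares. Crosses mark genes at the floor on all 4 arrays, blue names the 9 chosen genes, and dashed lines mark 2-fold. Penk stands alone near -7.04 and -6.15. Between it and Nsmaf lie near-level genes and Fam110b, which is close to the lower dashed line, and Tox is next to Nsmaf.

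With TNF, none of the 9 genes was 2-fold apart in either genotype. The shares of all genes were 4.12% in wild-type and 2.42% in knockout cells. Lower with TNF in both genotypes were 7 of the 9, all but Penk and Ubxn2b, against 33.9% of all genes. That count is of genes chosen with these values known, and it rests on 1 probe set a gene. Averaged over all probe sets it was 4 of the 8 genes then above the floor, Tox, Fam110b, Asph and Bpnt2. Under a floor at the 70th percentile it was 5 of 8. Tox and Fam110b then dropped out, with differences of 0 in knockout cells. The dimmer probe sets of Sdcbp were higher with TNF in both genotypes, by 0.06 to 0.26. Each array enters 1 genotype comparison and 1 TNF comparison, so these values share arrays with those above.

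Fam110b and Tox had the largest differences with TNF among the 9. Fam110b was lower by 0.62 log2 in wild-type and by 0.54 in knockout cells, that is 1.54-fold and 1.45-fold. Tox was 1.74-fold lower in wild-type and at least 1.28-fold lower in knockout cells, where the deposited values differed by -1.09. Its 3 probe sets differed by -0.80, -0.81 and -1.18 in wild-type cells. With TNF Asph was lower by 0.45 and 0.34 log2, and the second Chchd7 probe set by 0.49 and 0.57 while the representing one was lower by only 0.07 and 0.29. Nsmaf was itself lower with TNF, by 0.40 and 0.42. Ubxn2b was higher with TNF in both genotypes, by 0.33 and 0.26 log2, on its representing probe set alone.

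Penk was the one gene of the 9 whose difference with TNF had opposite signs in the genotypes. It was 1.46-fold lower with TNF in wild-type cells, from a signal of 14777 to 10096, and 1.26-fold higher in knockout cells, from 113 to 142. The wild-type values lie close to the top of the array and the knockout values near the floor. Opposite signs in the genotypes were found in 30.9% of all genes above the floor. Bpnt2, Sdcbp and Rab2a differed by at most 0.23 log2 with TNF on their representing probe sets.

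**Figure D4:**
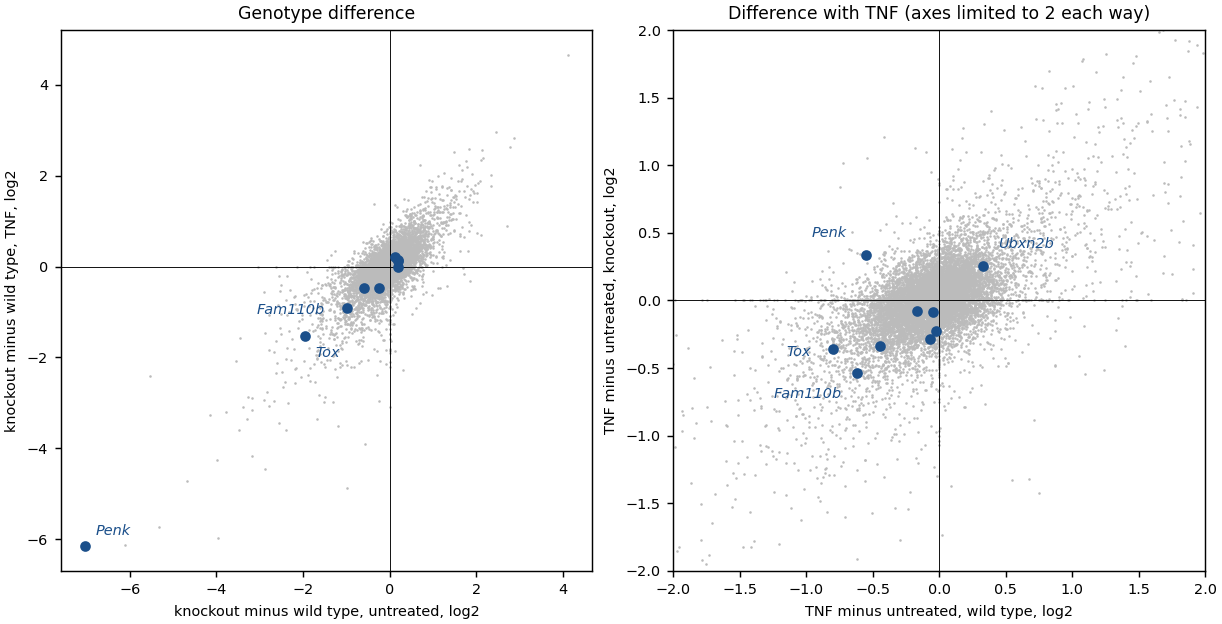
Left, knockout minus wild-type log2 differences without TNF (horizontal) and with TNF (vertical); right, TNF minus untreated log2 differences in wild-type (horizontal) and knockout cells (vertical). Each grey point is 1 of 12224 genes above the floor and blue points are the 9 chosen genes; the right panel shows differences of up to 2 each way. Penk lies at the far lower left of the left panel and, in the right panel, in the quadrant lower in wild-type and higher in knockout cells.

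Relatives and partners of the 9 gene products filled 9 lists with 77 genes above the floor. In untreated knockout cells 1 of the 77 passed the 2-fold limit upward and 1 downward, where 1.45% and 2.89% of all genes did. With TNF these were 1 and 2, against 1.55% and 2.64%. In 6 lists no gene was apart in any comparison. In the opioid peptide list 11 of 18 measured genes lay above the floor. The one gene of this list apart was Mme, which encodes neprilysin, a cell-surface peptidase that degrades enkephalins. It read 10.38 and 9.99 in wild-type and 7.72 and 7.03 in knockout cells, 6.35-fold and 7.77-fold lower. The genes of other opioid precursors did not share the step of Penk: Pomc read 7.32 to 7.48 on the 4 arrays, and Pdyn and Pnoc were below the floor. Of the opioid receptor genes, Oprk1 read 6.60 to 6.80, Oprm1 crossed the floor on the knockout arrays alone at 6.69 and 6.44, and Oprd1 and Oprl1 were below it. Cpe, a carboxypeptidase of prohormone processing, read 13.24 to 13.56, and the prohormone convertase gene Pcsk1 lay below the floor.

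Among the relatives of Tox, Tox4 read 9.35 to 9.58 and Tox2 6.72 to 6.88, and Tox3 lay below the floor, so neither measured relative shared the step of Tox. Fam110a read 7.25 to 7.66 and Fam110c 7.21 to 7.48. Among 7 partners of syntenin, the syndecan gene Sdc4 was 2.38-fold higher with TNF in wild-type and 1.61-fold higher in knockout cells, and 2.33-fold lower in knockout than in wild-type cells under TNF. The kinase gene Frk was 2.26-fold higher in untreated knockout cells. Chchd10, which like Chchd7 encodes a mitochondrial CHCH-domain protein, was 1.62-fold higher in knockout cells without TNF and 2.58-fold with it, opposite to Chchd7. The median differences between genotypes of the p97 cofactor list (15 genes) were 0.03 and 0.10 log2, and those of the RAB list (9 genes) 0.04 and 0.10. For the list around Asph (10 genes) they were -0.02 and -0.09, and for the sulfation list of Bpnt2 (11 genes) 0.23 and 0.10.

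The genes whose pattern over the 4 arrays lay nearest to that of Penk were on other chromosomes. Likeness was the Euclidean distance, over 4 arrays, between log2 values raised to the floor and centred on each gene's own mean. The median distance from Penk to all other genes was 6.61. The nearest was Sfrp2, a secreted Wnt inhibitor, at 0.94, with 13.80 and 13.03 in wild-type and 7.69 and 6.91 in knockout cells. It was followed by Cxcl15 at 1.60, the proteoglycan gene Lum at 2.18, Coch at 2.54 and Lcn2 at 2.81. All 5 were lower in knockout cells in both treatments, but Lum, Coch and Lcn2 were higher with TNF in wild-type cells, where Penk was lower. Nearest to Tox were Gpc3, a glypican, at 0.21, Top2a, a topoisomerase of dividing cells, at 0.22, and the patterning genes Hoxa11 at 0.28 and Hand2 at 0.30, then Cdon at 0.34, against a median of 1.86. These distances depend on the floor, to which Tox was raised in TNF-treated knockout cells. As deposited, the knockout difference with TNF was -1.09 log2 for Tox and -0.81 (Cdon) to -0.05 (Top2a) for these 5 genes. None of the 10 lies on chromosome 4, where 745 of the 12224 genes above the floor are ordered, so nothing is read from this. With 4 arrays, many genes can share such a pattern.

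**Figure D5:**
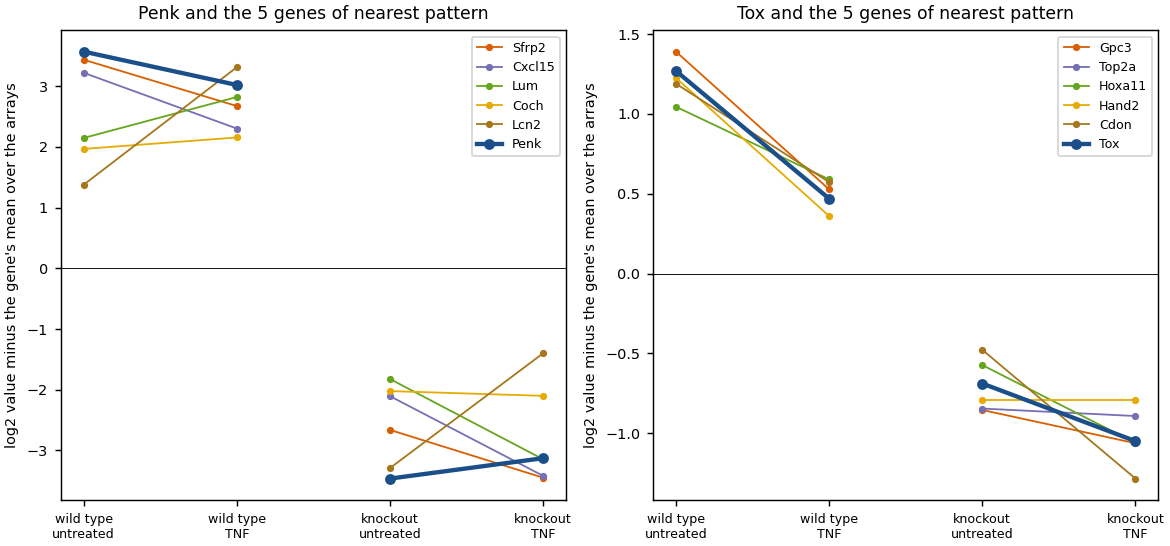
Log2 value minus the gene's mean over the 4 arrays (vertical axis) on each array (horizontal axis), for Penk (left, thick blue) and Tox (right, thick blue) with the 5 genes of nearest pattern as thin lines; values below the floor were raised to it. The genes near Tox keep within 0.34 of it in total distance, while those near Penk lie 0.94 to 2.81 away.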

How the data were processed

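The 4 arrays were used as the authors deposited them, as log2 probe set values (range 2.79 to 14.40); that they are log2 was judged from this range. MAS5 is the one tool named, without a version, per the submitters' processing notes. The medians of the arrays lay between log2 6.21 and 6.30. How probes were summarised and arrays normalized, and how far this compressed differences, is unknown here. Trimmed means of the linear signals differed by 2.94%, under the 5% set for rescaling.

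Of 45101 probe sets, 64 were controls, 34945 named 1 gene, 932 several, and 9160 were unnamed here. Entrez identifiers matched the RefSeq table for 34741, with 0 symbols changed. A gene was its probe set of highest mean. Values below the 50th percentile were raised to it. Genes listed on chromosome 4 with coordinates counted on unplaced sequence (2) were left out of the order. Members, lists, rules and alternatives were chosen with earlier results of these data known. Named genes are the members, Nsmaf, stretch and family list genes at least 2-fold apart (and the nearest neighbours), and the 5 nearest patterns of Penk and Tox; further genes of the lists and the stretch, and the marker genes named, were picked with their values in view. The steps from probe sets to gene differences were run on simulated arrays without noise. Shifts larger than the 2-fold limit were put into bright genes, so this checks the arithmetic alone. Ranks, gene order, pattern distances and the other settings were not part of it. Python 3.11.15, pandas 2.3.3 and NumPy 2.4.6 were used.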

Additional observations from a re-analysis of the deposited data

Results flagged for a closer look

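Penk was picked out because its difference with TNF had opposite signs in the 2 genotypes, on 1 array per condition. On the wild-type arrays it was -0.55 log2 and on the knockout arrays 0.34 log2. The difference between these responses was not tested.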

How the results depend on the processing

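Over 7 other settings, 244 single-gene differences of the 9 genes were recomputed, and 222 moved by less than the spread between probe sets of a gene (SD 0.21 to 0.29 log2); 22 moved further, and none that was 2-fold apart changed sign. Some smaller differences did change sign. Between genotypes, Rab2a with TNF ranged from -0.04 to 0.16 log2 and Ubxn2b without TNF from -0.09 to 0.19. The difference of Sdcbp with TNF ranged from -0.22 to 0.03 in wild-type and from -0.09 to 0.08 in knockout cells. A floor at the 70th percentile left 1 gene, Penk, apart between genotypes without TNF and 1 with TNF, instead of 2 each. Averaging all probe sets of a gene left 1 with TNF. Under a floor at the 30th percentile 1 gene, Tox, was 2-fold lower with TNF in knockout cells instead of 0. Around Nsmaf, that floor and the setting without a floor each brought Cdh17 past 2-fold between genotypes in both treatments. With 1.5-fold as the limit, which bears on counts alone, 2 genes, Tox and Fam110b, were lower with TNF in wild-type cells instead of 0, and 6 genes around Nsmaf instead of 3 were apart between genotypes in both treatments. The cause of the other moves was not tested; the floors and limits act by their own construction. No paired analysis was possible because each group holds 1 array and the labels give no replicate numbers. Grouping by the genotype entry would set both TNF arrays against both untreated ones and was not run. Signal near the floor limits Tox, Ubxn2b and the knockout values of Penk.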

Other observations

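Cd99, which encodes a cell-surface adhesion glycoprotein, is listed on chromosome 4 in the gene table, on sequence with no place in the order, and was named after its values were seen. It went the other way from Penk. On probe set 1428850_x_at it read 5.72 and 6.24 in untreated and TNF-treated wild-type cells and 10.38 and 10.92 in knockout cells, at least 17.3-fold and at least 25.2-fold higher. Its other probe sets, 1430514_a_at and 1453556_x_at, were at least 9.33-fold and 9.57-fold higher without TNF and 10.6-fold and 10.2-fold higher with TNF. Dhrsx, listed the same way, read 7.48 to 7.73 on the 4 arrays.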
